A study of Bos taurus with 16 samples.

Results

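In endometrial cells of postpartum dairy cows, 2292 autosomal CpG sites had a methylation level between 30 and 70% in every one of 16 reduced representation bisulfite sequencing (RRBS) libraries. They were chosen by that level among 189036 sites on autosomes 1 to 29, of which they made up 1.21%, and the whole table held 199395 sites. Members closer than 500 bp were joined into runs, and a run of 3 or more sites was described under the gene that the deposited annotation gave for it. The cows were multiparous Holstein-Friesians in a 2 by 2 design, with 4 libraries in each group. CON cows were fed a control diet, and MET cows were given rumen-protected methionine (RPM), a coated form of the amino acid that passes the rumen, from day 12 postpartum. Cows in heat between days 50 and 64 were inseminated, and endometrial cells were brushed from the uterus 4 to 8 h later, before the outcome was known. A later ultrasound check divided them into cows that resulted in pregnancy (CON_P and MET_P) or in no pregnancy (CON_noP and MET_noP). The methods describe DNA from more cytobrush samples than libraries in each group, so a library may hold several cows, and the spread between libraries may not be that between single cows. Any pair of libraries had identical values at 3.16 to 10.8% of sites, and the depth behind each percentage is unknown.

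A percentage of methylation is an average over the DNA molecules of a library. A level near the middle of the scale is found where the copies from one parent are methylated and those from the other are not, as at imprinted control regions, which keep the parental mark in somatic tissues. It is also found where cells or cell types of a sample differ, or where each molecule is methylated at some of its cytosines. Percentages per site cannot tell these apart. Imprinted genes are best known for fetal and placental growth, on which IGF2 and its receptor IGF2R act. Bovine imprinted regions include an intronic region of IGF2R, the GNAS locus, the DLK1 to MEG3 region and the SGCE and PEG10 gene pair.

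The rule fixed the range of the members, and the following values are a description of what it selected. The median of the site means was 50.3%, with quartiles of 47.1 and 53.3%. The median range between the lowest and the highest library at a member site was 29.95 percentage points, so the members were intermediate in each library without being constant. The rule is a narrow cut of a broad class. A further 33861 autosomal sites had a mean of 30 to 70% but left the band in at least 1 library, and 4108 autosomal sites were in the band in 15 of the 16 libraries. The median SD between libraries was 8.68 percentage points at the members and 12.1 at the other intermediate sites. Among the sites kept out by a single library, MET_noP library 25 kept out the most (445 sites), followed by CON_P library 26 (439), CON_P library 14 (424) and MET_noP library 17 (401). CON_noP library 24 and MET_P library 31 kept out 89 sites each, the fewest.

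**Figure D1:**
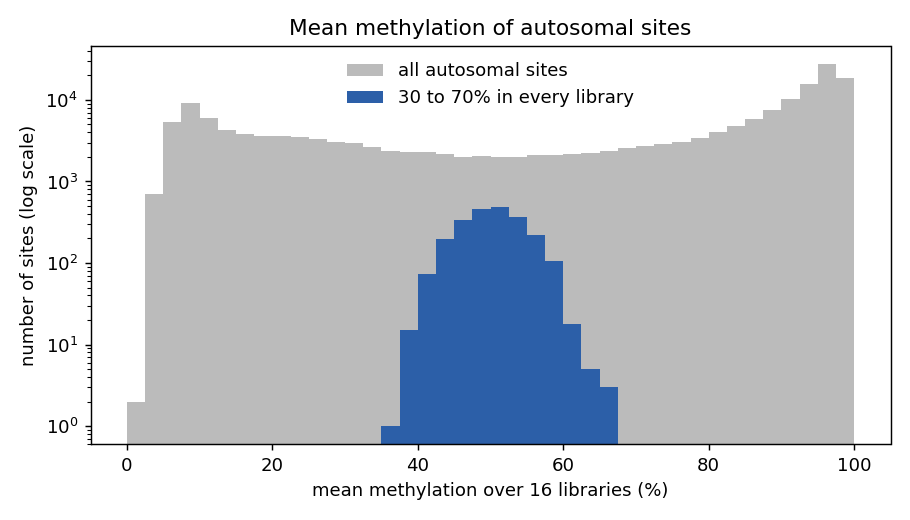
Number of autosomal sites (log scale) by mean methylation over 16 libraries in bins of 2.5 percentage points, in grey for all sites and in blue for the 2292 sites at 30 to 70% in every library. The grey bars are highest near both ends of the scale, in the bins that start at 7.5 and 95%, while the bin from 0% holds 2 sites. The blue bars peak at about 50%.

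At the edges of the band, 132 members had their lowest library at 30% and 138 had their highest at 70%. The last members inside the lower bound included a site in ITGB5, an integrin subunit, at chr1:69197097. Just outside it stood a site in TLCD2 at chr19:22807390, where the lowest library was at 29.9% and the highest at 66.7%. A site in TUT1, a terminal uridylyl transferase, at chr29:40927949 had the same lowest value of 29.9%. At the upper bound, a site in MELTF at chr1:71500150 was inside with a highest library of 70%, and chr13:345986, with no gene, was outside at 70.03%. Coordinates are those of ARS-UCD1.2.

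The second strand of the same CpG gave a value that the rule did not require. A cytosine on the opposite strand was measured for 181 members. At 24 of them it was itself a member, and of the other 157 its mean was between 30 and 70% at 149 (94.9%). The median absolute difference between the strands at these 157 was 4.88 percentage points. Most members had no other member within 500 bp (63.6%), although only 4.10% had no other measured site at that distance, against 3.92% of the other intermediate sites and 6.47% of all autosomal sites. A gene was annotated at 1225 members (53.4%), against 64.5% of all autosomal sites, and they fell in 786 genes. Of these, 571 genes held 1 member and 26 held 5 or more, led by PTPRN2, a receptor-type tyrosine phosphatase of secretory vesicles, with 18 of its 784 sites. Members were found on every autosome. Their share of the sites of a chromosome ran from 0.541% on chromosome 27 to 1.60% on chromosome 7, which carries the clustered protocadherins.

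Runs of 3 or more members numbered 96 and held 362 sites (15.8% of the members), while 236 runs were pairs and 1458 members stood in no run. Of the 96 runs, 64 had 3 sites, 16 had 4 and 16 had 5 or more. They lay on 26 chromosomes, 62 had a gene and 34 had none, and their median length was 57 bp. Run means were between 42.9 and 58.7%. The sites around the runs, which were not members, show how far the level extended. Within 100 bp, 1116 such neighbours were measured at 91 of the runs, and 690 (61.8%) had a mean of 30 to 70%. At 24 runs every neighbour was intermediate, whereas at 29 runs no more than 50% were.

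The longest run in a gene lay in IGF2R, the receptor that carries IGF2 to the lysosome and is expressed from the maternal copy in ruminants. It held 9 CpGs over 1100 bp, chr9:96221707-96222806, and the deposited annotation gives the gene but not whether the position is an exon or an intron. Its run mean over libraries was 52.7%. In CON_P it was 58.4, 49.3, 55.7 and 54.9% in libraries 14, 18, 26 and 30, and in CON_noP it was 42.7, 43.3, 56.3 and 56.5% in libraries 12, 16, 24 and 28. In MET_P it was 55.0, 54.0, 52.8 and 55.0% in libraries 15, 19, 27 and 31, and in MET_noP it was 50.8, 52.0, 53.7 and 51.8% in libraries 13, 17, 25 and 29. The 8 MET libraries lay close together, while CON_noP split into 2 lower and 2 higher libraries, and the groups overlapped. The 9 members lay in a larger block of intermediate sites and were not always its least variable sites. All measured sites in the same 500-bp cluster, chr9:96221360-96223066, numbered 139, and 127 of them had a mean of 30 to 70%. Of the 63 neighbours within 100 bp of the run, 59 were intermediate. The tenth IGF2R member, at chr9:96242620, stood apart with a mean of 46.0%. Over the whole gene 130 of 244 sites had a mean of 30 to 70%.

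**Figure D2:**
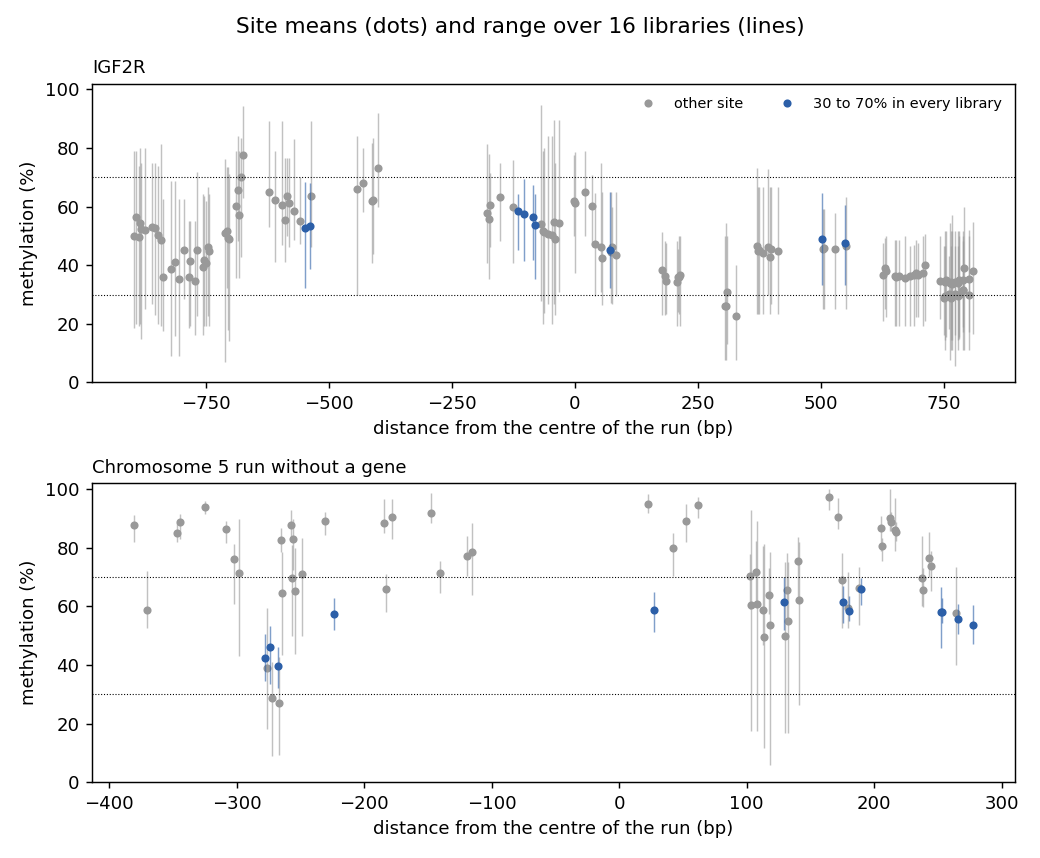
Methylation (%) by distance from the centre of the run (bp) for the IGF2R run and for the chromosome 5 run without a gene. Dots are means of 16 libraries, lines join the lowest and the highest library, blue marks sites at 30 to 70% in every library, and dotted lines mark 30 and 70%. Around the IGF2R run 59 of 63 neighbours were intermediate, and around the chromosome 5 run 34 of 58 were above 70%.

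The run with the most sites had a different setting. It held 13 sites on 12 CpGs at chr5:26562041-26562596, had no gene, and lay between MAP3K12, a kinase of stress signalling, and SP1, a transcription factor of GC-rich promoters. Its site means ran from 39.8 to 65.9%, and its run mean over libraries was 55.2% with an SD of 2.21 percentage points, the smallest among the 5 runs with most CpGs. Of 58 neighbours within 100 bp, 34 had a mean above 70%, 22 were intermediate and 2 were below 30%. Members and nearly full sites alternated within a short stretch. A run near the start of chromosome 9, chr9:44632-44813, was alike in this: 38 of its 45 neighbours were above 70%.

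GNAS, which encodes the stimulatory G protein alpha subunit and carries several parentally marked promoters, had 11 members and 134 of 142 sites with a mean of 30 to 70% (94.4%). Its first run, chr13:57486276-57486294, held 3 CpGs, and its 15 neighbours within 100 bp were all intermediate, with means from 42.1 to 47.0%. The run mean was 57.1, 38.4, 45.0 and 46.5% in CON_P libraries 14, 18, 26 and 30 and 38.9, 30.3, 54.6 and 42.8% in CON_noP libraries 12, 16, 24 and 28. It was 52.9, 45.7, 46.0 and 42.6% in MET_P libraries 15, 19, 27 and 31 and 59.0, 34.3, 32.1 and 60% in MET_noP libraries 13, 17, 25 and 29. The libraries of MET_noP split into 2 higher and 2 lower ones, and its SD of 15.2 percentage points was the largest of the 4 groups. The last run, chr13:57532599-57532640, had a mean of 49.4%, and 3 of its 11 neighbours were intermediate while 8 were below 30%. The third site of that run carried no gene name. A further 6 GNAS members stood in pairs, at chr13:57518393 and 57518414, at chr13:57520254 and 57520273 and at chr13:57531460 and 57531463.

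SGCE, which encodes epsilon-sarcoglycan and is expressed from the paternal copy, had 3 measured sites, and all 3 were members, at chr4:12063247-12063302. The run mean was 44.1, 40.6, 51.1 and 38.5% in CON_P, 46.5, 35.9, 45.8 and 42.5% in CON_noP, 46.1, 53.0, 49.3 and 36.9% in MET_P and 46.2, 34.7, 49.1 and 54.3% in MET_noP, in ascending order of library number. The 4 groups overlapped over most of their range. PEG10, the neighbouring retrotransposon-derived gene, had 2 sites in the table, at 95.9 and 98.4%, and neither was a member.

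Between DLK1, a paternally expressed inhibitor of differentiation, and RTL1, a retrotransposon-derived gene of the placenta, 69 sites were measured on chromosome 21 and 41 had a mean of 30 to 70%. The maternally expressed noncoding RNA MEG3 lies in this interval. The interval held 4 members, of which 3 formed a run at chr21:65723357-65723380 that the table gives no gene. This run was singled out after its values were seen. Its mean was 48.0%, and its 10 neighbours within 100 bp were all intermediate. It was 52.5% ± 10.5 in MET_P and 46.9% ± 6.23 in CON_P (SD, n = 4), and 47.3% ± 3.60 in MET_noP and 45.1% ± 11.5 in CON_noP, with overlap of the groups. DLK1 itself had 1 member, at chr21:65633898, with a mean of 50.5%, and the 4 sites of RTL1 were between 88.7 and 99.3%.

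**Figure D3:**
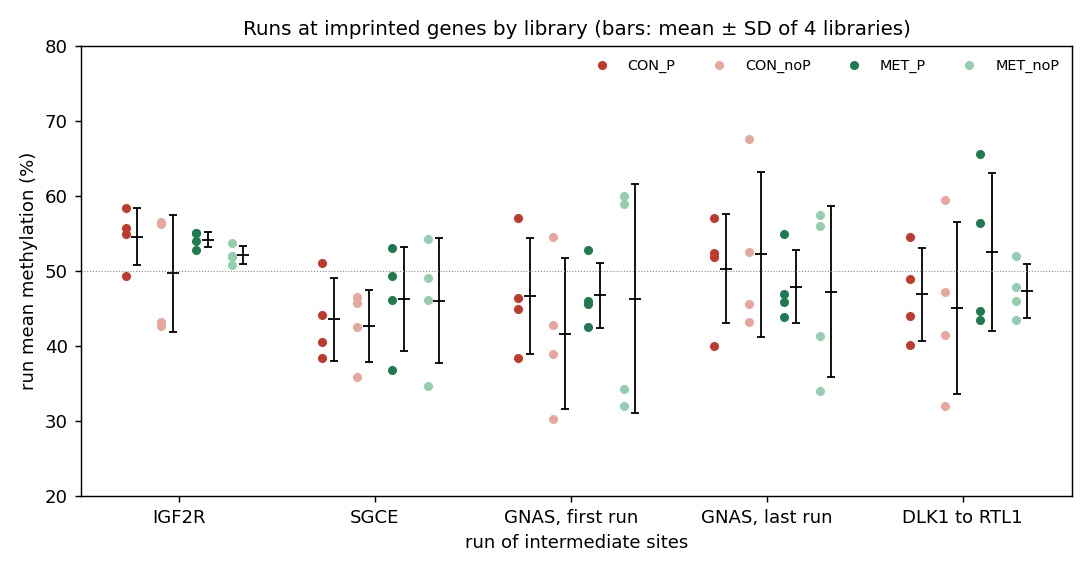
Run mean methylation (%) of 5 runs, those in IGF2R, SGCE and GNAS and the one between DLK1 and RTL1, by group. Each dot is 1 library and bars are the mean ± SD of 4 libraries. The 4 groups overlapped at each run, and the dots of the first GNAS run spread from 30.3 to 60%.

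Across a list of 104 genes known as imprinted in mammals, 15 held members, 40 sites in all. That was 1.75% of the members, against 1.58% of the other intermediate sites and 1.07% of all autosomal sites. The list's share rested on IGF2R and GNAS: without these genes it was 0.837% of the members and 0.869% of all autosomal sites. ANO1, a chloride channel, had 3 members, and ATP10A and KCNQ1, a phospholipid transporter and a potassium channel, had 2 each. Genes with 1 member were MEST, KCNK9, TRAPPC9, GRB10, IGF1R, DLK1, CD81, TSPAN32 and IGF2. The MEST site, at chr4:94250933, had a mean of 47.4% and lay among 19 sites of which 11 were intermediate. MEST is a paternally expressed hydrolase-like gene. Other imprinted genes had intermediate levels without a member, such as MAGEL2 (3 of 3 sites), or hardly any, such as PEG3, a paternally expressed zinc finger gene (1 of 62 sites).

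Clustered protocadherins are cell adhesion proteins of which each neuron expresses its own choice, with promoter methylation as part of that choice. The cluster spanned chr7:51903812-52592185, from the first to the last site named for these genes, and held 248 measured sites. It was singled out after its values were seen, so its share of members is a description only. Of these 37 (14.9%) were members, or 1.61% of all members on 0.131% of the autosomal sites. Members included, 150 sites of the cluster had a mean of 30 to 70%, and the median level over its sites was 46.6%. Members were found in the alpha genes PCDHA3 (4 of 19 sites) and PCDHA4 (1 of 23), in ENSBTAG00000015439 beside them (5 of 28), in a beta-4-like gene (5 of 23) and in PCDHGC3 of the gamma genes (8 of 47), and 14 lay outside a named gene. The 37 sites of PCDHAC2 and the 6 of PCDHA13 held none.

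Of the 7 protocadherin runs, the largest had 8 CpGs in 70 bp, chr7:51947710-51947779, in the alpha part of the cluster but outside a named gene. Its run mean was 44.1, 50.0, 43.8 and 42.3% in CON_P libraries 14, 18, 26 and 30 and 51.4, 45.0, 45.0 and 46.1% in CON_noP libraries 12, 16, 24 and 28. In MET_P libraries 15, 19, 27 and 31 it was 57.4, 49.7, 47.9 and 44.0%, and in MET_noP libraries 13, 17, 25 and 29 it was 56.8, 45.0, 46.5 and 53.1%. The highest values were in the MET groups, and the ranges overlapped. In PCDHGC3 the larger run, chr7:52499410-52499841 with 5 CpGs, had a mean of 46.0%, and 6 of its 13 neighbours were intermediate while 7 were below 30%.

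**Figure D4:**
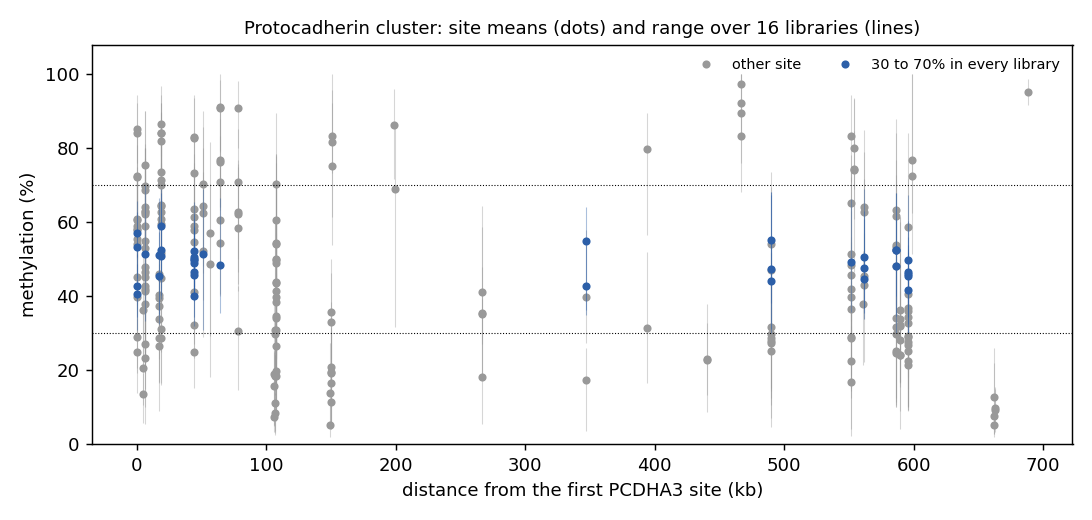
Methylation (%) of 248 sites in the protocadherin cluster by distance from the first PCDHA3 site (kb). Dots are means of 16 libraries, lines join the lowest and the highest library, blue marks the 37 sites at 30 to 70% in every library, and dotted lines mark 30 and 70%. The blue sites lie in the alpha part on the left and the beta and gamma parts on the right.

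Other runs with most CpGs lay in genes of varied function or in none. CACNA1S, the pore subunit of the skeletal muscle calcium channel, had a run of 8 CpGs at chr16:79658461-79658986 with a mean of 52.5%. PHF21B, a PHD finger protein, had 6 CpGs at chr5:115463211-115463295 with a mean of 49.5% and all 4 neighbours intermediate. Its run mean was 58.7, 50.0, 52.9 and 50.2% in CON_P libraries 14, 18, 26 and 30 and 43.9, 46.6, 48.5 and 44.6% in CON_noP libraries 12, 16, 24 and 28, without overlap, and both MET groups overlapped CON_noP. Over all 10 sites of the 500-bp PHF21B cluster, CON_P minus CON_noP was -0.03 points, so the difference at the members was not seen over the cluster. In this comparison 0 of the 96 clusters that hold runs had groups without overlap, against 2.14% of all clusters. RADIL, an effector of the Rap GTPase in cell adhesion, had 6 CpGs at chr25:39148037-39148107 (51.9%), and COBL, an actin nucleator, had 5 at chr4:4802415-4802944 (45.3%). A gene described as cytochrome c oxidase subunit 8C, ENSBTAG00000053789, had 6 CpGs at chr21:57973517-57973618 (50.8%), and a run of 6 without a gene lay between TARSL2 and PCSK6 at chr21:28915294-28915427 (47.7%). Runs of 5 CpGs were also found in GPSM1 (47.9%), in the nuclear receptor gene RXRA (50.7%) and between SULF2 and PREX1 (50.4%), and followed COBL and PCDHGC3 only by position. These 3 were named after their values were seen, as were smaller runs in MEI1 (46.1%) and MOV10L1 (45.6%), which act in the germ line.

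FERMT3, which encodes kindlin-3, an activator of integrins in blood cells, had 7 of its 28 sites among the members, and they formed 1 run at chr29:42515830-42516104. Its run mean was 45.8, 46.9, 45.9 and 44.4% in CON_P libraries 14, 18, 26 and 30 and 54.3, 58.1, 53.6 and 53.7% in MET_P libraries 15, 19, 27 and 31. It was 48.8, 44.2, 51.1 and 47.4% in CON_noP libraries 12, 16, 24 and 28 and 57.1, 45.4, 50.7 and 52.9% in MET_noP libraries 13, 17, 25 and 29. The MET_P libraries were all above the CON_P libraries, by 9.19 percentage points in the mean, and the means of CON_noP (47.9%) and MET_noP (51.6%) lay between. Over all 15 sites of the 500-bp cluster the difference was 8.07 points, which did not pass limma's test over all clusters (adjusted p = 0.798). Of the 96 clusters that hold runs, 3 (3.12%) had groups that did not overlap in MET_P versus CON_P, FERMT3 among them, against 3.67% of all clusters.

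Cytobrush samples can hold leukocytes beside epithelial cells. Of 12 leukocyte genes 10 had measured sites, and 4 held members: RUNX3 with 2 of 59 sites, and SPI1, PTPRC and ITGAM with 1 each. Of the 239 sites of this list 5 (2.09%) were members and 100 (41.8%) were other intermediate sites, against 1.21 and 17.9% of all autosomal sites. CD79A of B cells had 8 of 10 sites with a mean of 30 to 70%, and CD8A had none of 7. Of 10 epithelial genes 7 had measured sites, 30 in all. None of these was a member, a number at which a share of 1.21% would hardly be seen, and 2 were other intermediate sites, in the keratin genes KRT18 (31.3%) and KRT19 (63.7%). The 4 sites of CDH1 (E-cadherin) were at 4.95 to 8.72%, and the median of the 9 sites of GRHL2 was 92.7%. Whether the mixture of cells plays a part in the intermediate levels was not tested. Of 14 genes that write, erase or keep methylation 5 had measured sites, and 1 of the 44 sites in DNMT3A was a member, which gave the list 0.0436% of the members and 0.0434% of all autosomal sites.

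Averaged over all 2292 members, the libraries differed little. The mean was 53.6, 51.9, 48.8 and 48.0% in CON_P libraries 14, 18, 26 and 30, and 49.7, 48.1, 50.3 and 48.5% in CON_noP libraries 12, 16, 24 and 28. It was 51.5, 50.1, 49.8 and 51.1% in MET_P libraries 15, 19, 27 and 31, and 51.5, 47.9, 52.7 and 51.3% in MET_noP libraries 13, 17, 25 and 29. The group means were 50.6% ± 2.62 (CON_P), 49.1% ± 1.01 (CON_noP), 50.8% ± 2.07 (MET_noP) and 50.6% ± 0.807 (MET_P; SD, n = 4), and the groups overlapped in each comparison. The mean over all autosomal sites ran from 62.7% in CON_noP library 16 to 66.2% in CON_P library 14, which also had the highest mean over members, and its part in the member means was not tested.

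The 4 comparisons asked whether the members differed with outcome within a diet or with diet within an outcome. The rule used the same values and confined each site to 40 percentage points, so the following counts describe the members and say nothing of how stable such sites are. In the limma fit over the whole table, after Benjamini-Hochberg adjustment, no member or other site passed in the 4 comparisons (percent called: 0 of all sites). None of the 96 clusters that hold the runs passed (0 of 25287 clusters). The study's logistic regression on read counts, a different test, did report differentially methylated sites in each comparison. For the interaction of diet and outcome in limma, 0.001% of all sites passed, and no member. In this interaction 32 members (1.40%) had an unadjusted p under 0.05, against 5.25% of all sites, a count made on M only. The lowest adjusted p of a member in this limma fit was 1 for CON_P versus CON_noP, 0.890 for MET_P versus MET_noP, 0.827 for MET_P versus CON_P and 0.906 for MET_noP versus CON_noP. At an unadjusted p under 0.05 the counts were 5, 22, 33 and 19 members in the same order (0.218, 0.960, 1.44 and 0.83%), against 3.93, 5.12, 5.83 and 5.13% of all sites. On percentages without transformation they were 131, 201, 235 and 180 (5.72, 8.77, 10.3 and 7.85%), against 4.02, 5.43, 6.34 and 5.72% of all sites, so that the position of the members relative to the background depended on the scale.

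The overlap of libraries does not depend on the scale. In CON_P versus CON_noP, 49 members had groups that did not overlap (2.14%, against 1.99% of all sites). Of these members 32 were higher in CON_P and 17 lower, and over all sites 1.22% were higher and 0.77% lower. The count was 86 in MET_P versus MET_noP (3.75%, against 2.9%). Here 48 members were higher in MET_P and 38 lower, and over all sites 1.64% were higher and 1.26% lower. It was 87 in MET_P versus CON_P (3.80%, against 3.09%). Here 48 members were higher in MET_P and 39 lower, and over all sites 1.92% were higher and 1.17% lower. It was 69 in MET_noP versus CON_noP (3.01%, against 2.75%). Here 54 members were higher in MET_noP and 15 lower, and over all sites 1.85% were higher and 0.903% lower. The comparisons share libraries in pairs and are not independent of each other.

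**Figure D5:**
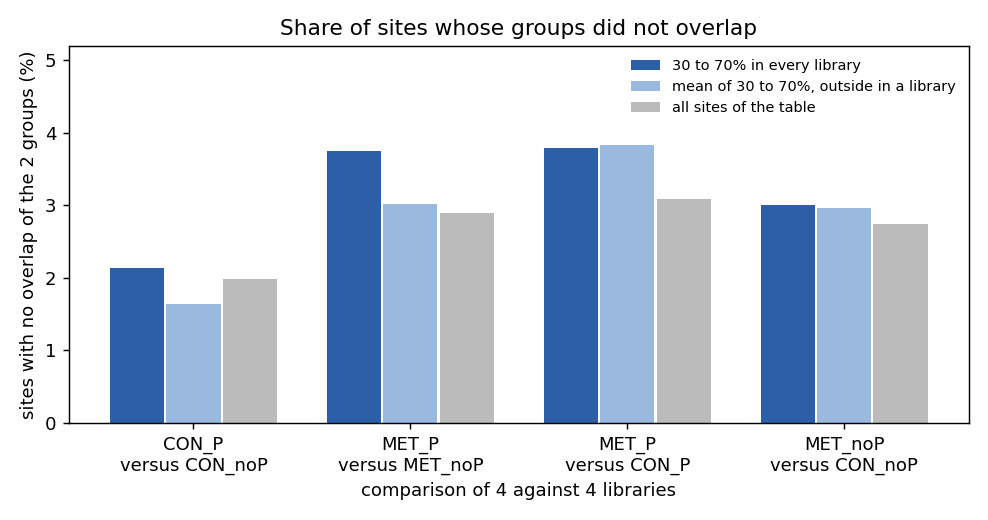
Share of sites (%) whose 2 groups of 4 libraries did not overlap, by comparison, for the 2292 sites at 30 to 70% in every library, for sites with a mean of 30 to 70% that left the band, and for all sites of the table. The blue bars range from 2.14 to 3.80% and the grey bars from 1.99 to 3.09%.

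Most differences at members were below 10 percentage points. The median absolute difference was 3.89 percentage points in CON_P versus CON_noP, 4.02 in MET_P versus MET_noP, 4.78 in MET_P versus CON_P and 4.11 in MET_noP versus CON_noP, against 2.79, 2.63, 2.94 and 2.82 over all autosomal sites. A difference of more than 10 points was seen at 224, 259, 334 and 252 members, and of more than 20 points at 1, 4, 7 and 6. In CON_P versus CON_noP and in MET_noP versus CON_noP, 60.4 and 61.7% of members were higher in the first group, against 55.5 and 57.2% of all autosomal sites, and both comparisons share the CON_noP libraries.

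The members with the lowest unadjusted p and no overlap of the groups are given for each comparison, and none passed the adjustment. In CON_P versus CON_noP, a site in ENSBTAG00000046177 at chr16:79744845 was at 66.7, 47.4, 63.6 and 60% in CON_P libraries 14, 18, 26 and 30 and at 37.5, 45.8, 31.7 and 37.1% in CON_noP libraries 12, 16, 24 and 28, a difference of 21.4 points. The MET groups were at 39.9% ± 6.59 (MET_P) and 44.2% ± 7.02 (MET_noP), near CON_noP. PRKCA, a calcium-dependent protein kinase, had the opposite direction at chr19:62850941, with 52.6, 50.0, 35.7 and 50.0% in CON_P and 65.4, 55.6, 69.6 and 70% in CON_noP. STARD10, a phospholipid transfer protein, was also lower in CON_P at chr15:52302564, at 36.4% ± 4.58 against 50.6% ± 2.48. The study's logistic regression also listed the gene STARD10 as less methylated in CON_P. Higher in CON_P was chr25:33613515, with no gene, at 56.3% ± 6.55 against 39.0% ± 3.97.

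In MET_P versus MET_noP, a site in ARHGEF17, a guanine nucleotide exchange factor, at chr15:52854446 was at 64.9, 55.7, 60.8 and 58.6% in MET_P libraries 15, 19, 27 and 31 and at 41.9, 30, 39.4 and 40.3% in MET_noP libraries 13, 17, 25 and 29. The difference was 22.1 points, and the means of CON_P (43.6%) and CON_noP (48.1%) lay between. A site without a gene at chr14:22029216 was at 59.8% ± 6.87 in MET_P and 37.2% ± 4.34 in MET_noP. It was at 59.0% ± 5.80 in CON_noP, so the same MET_noP libraries also gave it a place in MET_noP versus CON_noP. Lower in MET_P were chr8:111754527, with no gene, at 39.0% ± 6.29 against 59.3% ± 4.42, and FAM19A5, a secreted chemokine-like protein, at chr5:118473441, at 48.9% ± 6.65 against 65.9% ± 3.29.

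In MET_P versus CON_P, a site in ADGRD2, an adhesion receptor of the G protein-coupled class, at chr11:95485213 was at 65.5, 69.6, 59.6 and 61.5% in MET_P and 42.4, 50.0, 30 and 40% in CON_P, in ascending order of library number. A site without a gene at chr25:3390822 was at 60.05% ± 7.79 against 35.9% ± 7.29. Lower in MET_P was chr21:63971796, with no gene, at 39.9% ± 5.28 against 60.01% ± 9.0. At ADGRD2 the means of CON_noP (44.8%) and MET_noP (51.5%) lay between.

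In MET_noP versus CON_noP, a site in CBFA2T3, a transcriptional corepressor, at chr18:14077282 was at 65.4, 55.0, 55.6 and 63.2% in MET_noP and 36.8, 35.7, 35.9 and 36.1% in CON_noP. The CON_noP libraries lay close together (SD 0.495 points), and the difference was 23.6 points. A site in ENSBTAG00000051324 at chr21:69700331 was at 65.1% ± 3.01 against 44.5% ± 10.8. Lower in MET_noP was TMIGD3 at chr3:31795931, at 44.4% ± 11.4 against 63.8% ± 1.97, as was the chromosome 14 site described above.

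Over the 96 runs, a median difference of 1.83 percentage points was found in CON_P versus CON_noP, -0.21 in MET_P versus MET_noP, 0.637 in MET_P versus CON_P and 1.37 in MET_noP versus CON_noP. The largest run differences were between 10.8 and 11.9 points upward and between 8.54 and 14.4 points downward, depending on the comparison. At an unadjusted p under 0.05 in limma on M, 0, 1, 1 and 2 of the 96 clusters passed, against 3.56, 5.01, 6.41 and 5.31% of all clusters. This count was not made on percentages, the scale on which the standing of member sites against all sites changed. Groups did not overlap at 0, 4, 3 and 5 of the 96 clusters, against 2.14, 3.18, 3.67 and 3.2% of all clusters. For the 16 runs named by rule or by the DLK1 to RTL1 choice, 52 of 64 run differences were within 1 SD between libraries. No share over all runs was computed beside this count, so it does not set the named runs apart. At the IGF2R cluster of 139 sites, MET_P was at 50.8% ± 2.94 and CON_P at 43.3% ± 4.82, and the difference of 7.49 points had an adjusted p of 0.791 in limma. Over the 9 members of the IGF2R run, MET_P minus CON_P was -0.389 points. The rule kept only sites whose libraries all stayed in the band, and so left out sites that a shift took beyond it. The value at the members therefore does not show whether the cluster difference reached the run.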

How the data were processed

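RRBS libraries were made after MspI digestion and bisulfite treatment. The authors used Trim Galore for trimming and Bismark for alignment (genome build ARS-UCD1.2), merged runs and quantified percent methylation per cytosine in SeqMonk at a minimum of 10 reads. Positions without a value or with a value of zero were discarded by the authors, which removes fully unmethylated sites among others. The 199395 sites left are a small part of those first identified, and each share of all sites refers to this filtered set. The deposited percent values carry no read counts, so depth and the interval of a single percentage are unknown, and the study's logistic regression on counts could not be repeated. Columns were assigned to groups by the name above them. Each library was 1 replicate.

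Members were autosomal sites at 30 to 70% in all 16 libraries, joined at gaps of up to 500 bp. Neighbours were counted within 100 bp. M = log2((percent + 1)/(100 - percent + 1)) was fitted with limma 3.58.1 in R 4.3.3 to the 8 libraries compared, and p-values were adjusted after Benjamini and Hochberg over 199395 sites or 25287 clusters of at least 3 sites. Other steps ran in Python 3.11.15. The site test was checked on simulated data. Members, lists and tests were chosen with earlier results of these data known. The text names the 12 runs with most CpGs, runs in listed imprinted genes, the members at the bounds, and up to 2 members per direction and comparison with the lowest unadjusted p and no overlap, of which 1 is not reported here. The genes given on either side of a run without a gene were those of the nearest measured sites with a gene name in the deposited annotation. Genes without a measured site may lie between. Other gene neighbours came from a RefSeq table of ARS-UCD2.0, without its coordinates. Sequences were not used here.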

Additional observations from a re-analysis of the deposited data

Results flagged for a closer look

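Over 68 groups of 4 libraries (the mean over members and the 16 named runs in each group), 2 had a highest library that stood apart from the other 3 by Dixon's 95% criterion, and chance alone gives about 1 in 20. In the chromosome 7 protocadherin run that starts at position 51947710, CON_noP library 12 was at 51.4%, against 45.0 to 46.1% in the other 3 CON_noP libraries. In the FERMT3 run, MET_P library 19 was at 58.1%, against 53.6 to 54.3% in the other 3 MET_P libraries, all of which were above the CON_P libraries.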

How the results depend on the processing

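With a band of 25 to 75% the members numbered 7741 in 620 runs, and with 35 to 65% they numbered 349 in 9 runs, with an imprinted-list share of 1.15%. Without IGF2R and GNAS, an alternative chosen after seeing the data, that share was 0.837%. Leaving out 1 library from the rule gave 2381 to 2737 members in 100 to 125 runs and a share of 1.58 to 2.09%. Merged strands gave 2304 members, and gaps of 250 and 1000 bp gave 89 and 98 runs. No member or run cluster passed the adjusted threshold under any alternative run. The members at an unadjusted p under 0.05 numbered 18, 46, 69 and 38 with trend moderation, and 4 to 24, 14 to 38, 16 to 94 and 10 to 35 when 1 library was left out, in the order CON_P versus CON_noP, MET_P versus MET_noP, MET_P versus CON_P and MET_noP versus CON_noP. The cause was not tested. Differences between groups in the mean over members stayed within 1 SD of their values. Of 64 differences of named runs, 27 changed sign when 1 library was left out. The columns carry library numbers, not the replicate numbers of the labels, and form 4 sets of consecutive numbers with 1 library of each group, whose meaning is not given. Deviations of libraries of the same set, taken over all sites, correlated at -0.0612 to 0.0403. Such a correlation can miss an effect shared at some sites only, so it does not settle whether the sets paired the libraries. With the set as a replicate block, an alternative chosen after seeing the data, 0 members passed the adjusted threshold in each comparison, and 0, 7, 8 and 8 had an unadjusted p under 0.05. Sequence features were not run.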

Other observations

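On the X chromosome, which was left out of the members because cows inactivate one of their copies, 310 of 10346 sites (2.996%) were between 30 and 70% in every library, against 1.21% on autosomes. A mean of 30 to 70% was found at 35.1% of X sites and at 19.1% of autosomal sites. Of the sites with such a mean, 8.54% on X and 6.34% on autosomes stayed in the band in all libraries. The X sites formed 29 runs of 3 or more. The genes with most of them were CHST7, a sulfotransferase (8 of 98 sites), ENSBTAG00000051663 (5 of 16), LAGE3 (5 of 41) and ZNF75D (5 of 62), followed by FGF16 (4 of 21), HDAC6, a cytoplasmic deacetylase (4 of 6), and NHS (4 of 65).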
